A study of Gallus gallus with 2 samples.

Results

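Splicing factors and heterogeneous nuclear ribonucleoproteins (hnRNPs) are the proteins that recognise introns in nuclear pre-mRNA, remove them and choose among alternative exons. The set described here held the 48 genes whose chicken RefSeq symbol begins with SNRP, LSM and a digit, SF3, U2AF, PRPF, SRSF, TRA2, HNRNP, or RBM and a digit, among 5382 genes that could be named on the array. They were read by 145 of 43603 probes, and every probe of a gene carried the same RefSeq accession. A further 53 genes with such symbols had no probe under this rule and were not analysed here.

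The RNA came from DT40, a chicken B cell line. Both cultures carried the H2A.Z double knockout, a loss of both genes for the histone variant H2A.Z. One stably expressed the cancer-associated mutant H2A.Z-R80C and the other H2A.Z.1, each as a FLAG-tagged protein, and both were grown without tetracycline. Each group had 1 array on a shared slide and scan, so there is no test, p-value or replicate error, and each difference describes these 2 arrays. The labels do not say whether a line was a single clone.

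Splicing proceeds in ordered steps. The U1 snRNP, a particle of RNA and protein, marks the 5′ splice site, U2AF and the U2 snRNP mark the 3′ end of the intron and the branch point, and the U4/U6.U5 tri-snRNP and the Prp19 complex then form the active enzyme. SR proteins mostly promote the use of the exons they bind and hnRNPs often oppose them, and several of both groups bind their own transcripts and limit their own level.

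Values are given as the processed signal of a probe, a brightness on an arbitrary linear scale, and as the R80C minus H2A.Z.1 difference of log2 signals, each scaled to the 75th percentile of its array (1055 in R80C cells and 1078 in H2A.Z.1 cells). A gene's difference is the mean over its probes. Signals depend on the probe as well as on the transcript, so they are compared between arrays for the same probe and not between genes.

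All 145 probes of the 48 genes lay well above background on both arrays. All 48 genes were thus measured, beside 80.4% of all named genes, where any such probe sufficed for a gene. Well above background is the scanner software's own flag. Probe signals ran from 43.2 to 104640 in R80C cells, with a median of 8955, and from 46.3 to 107386 in H2A.Z.1 cells, with a median of 9368. No spot was saturated. The flag was passed by signals down to 5.81 in R80C cells and 6.95 in H2A.Z.1 cells. The dimmest probe of the set, one of RBM48, read 43.2 in R80C cells and 46.3 in H2A.Z.1 cells.

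The 48 genes were nearly the same in both cultures. None was higher or lower in R80C cells by 0.32 (log2) or more, a size that 2.73% and 4.44% of the 4326 measured named genes reached in those directions, and none reached 1.5-fold (0.67% and 1.27%). Gene differences ran from -0.16 for SRSF5 to 0.17 for RBM6, with a median of 0.0076 and a standard deviation (SD) of 0.068 among genes, beside a median of 0.013 and an SD of 0.20 over all named genes. In all, 28 genes lay above 0 and 20 below, and 55.6% of all named genes lay above 0. Only RBM6 and SRSF5 differed by 1.1-fold or more, which 25.8% of all named genes did.

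Part of that narrow spread goes with signal. Of the 48 genes, 44 lay at or above the median signal of measured genes, where the differences of named genes in general are smaller. Of the 2163 named genes with such signals, 0.416% were higher and 0.786% were lower in R80C cells by 0.32 or more, so a count of 0 in 44 is close to the background. At this signal 12.6% of all named genes differed by 1.1-fold or more and 0 of the 44 did. The SD among genes was 0.059 for the 44 and 0.098 for the 2163. These comparisons were matched neither for signal above the median nor for the number of probes. Several probes were measured for 43 of the 48 genes, beside 2776 of the 4326 named genes, and a mean over more probes varies less. Among the 145 probes, differences had an SD of 0.054 in the brighter 73 and 0.094 in the dimmer 72.

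**Figure D1:**
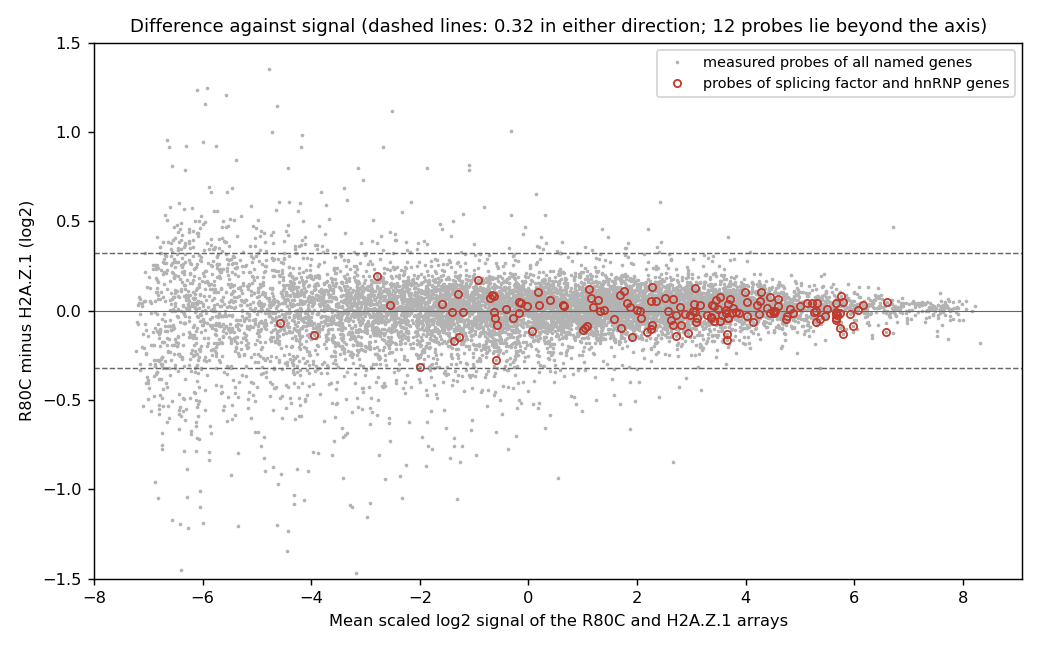
R80C minus H2A.Z.1 difference (log2, vertical axis) against the mean scaled log2 signal of both arrays (horizontal axis), for measured probes of all named genes (grey) and the 145 probes of splicing factor and hnRNP genes (red circles). Dashed lines mark 0.32, the red circles lie inside them, and 12 grey probes fall beyond the vertical axis at 1.5 in either direction.

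The scanner software attaches an error estimate to each signal, about 10% of the signal for these probes, which gives a probe's difference an error of 0.20 (log2). Of the 145 probes, 2 differed by more than that, beside 12% of the probes of all named genes. Both belonged to SRSF5. The estimate was wider than what the probes themselves showed: within genes of the set, probes varied around their gene's difference with an SD of 0.055, and over all named genes with an SD of 0.094. Neither the share beyond the error nor these SDs were matched for signal, and 44 of the 48 genes lay at or above the median signal. All of these figures come from the same 2 arrays and hold nothing about the spread between cultures. How much of the SD within genes is technical was not tested.

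The genes are taken below in the order of their roles. Within each symbol class the 2 highest and 2 lowest members are given with their values, by a rule that also asked for members past 0.32 or with probes 0.5 or more apart and found none. The other members are named to complete their class.

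SNRP genes encode the proteins of the small nuclear ribonucleoproteins. The 7 measured members ranged from -0.092 to 0.067 with a median of -0.023, and 3 lay above 0. SNRPA1, a protein of the U2 particle that binds U2 RNA, had signals of 23734 and 11880 in R80C cells against 23012 and 11654 in H2A.Z.1 cells at its 2 probes, and a difference of 0.067. SNRPN, whose entry in the naming table also lists the name SNRPB for a core Sm protein, had the brightest R80C reading of the set, 104640 against 103193 in H2A.Z.1 cells, and stood at 0.051 on 1 probe. The remaining Sm proteins of the set form, with others, the ring that wraps the RNA of U1, U2, U4 and U5.

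SNRPD1 was the lowest of the class at -0.092, with 8791 and 7746 in R80C cells against 9368 and 8613 in H2A.Z.1 cells. SNRPE had 4 probes, all slightly below 0, with signals of 46345, 40724, 28351 and 24108 in R80C cells against 48330, 43435, 29543 and 24822 in H2A.Z.1 cells, and a difference of -0.033. SNRPF stood at -0.023 and SNRPD3 at -0.028. The ring genes of the set thus did not share one direction, since SNRPN lay above 0 and the other 4 below it, and the signs of SNRPD3, SNRPE and SNRPF turned when the arrays were scaled on their medians. For SNRPC, a U1 protein at the 5′ splice site, the brighter pair of probes lay below 0 and the dimmer pair above, with a mean of 0.0017.

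LSM genes encode proteins related to the Sm family. LSM3 and LSM7 belong to the ring on U6 RNA and to a cytoplasmic ring that acts in mRNA decay, whereas LSM14A acts in translational repression and P-bodies, cytoplasmic granules of stored and decaying mRNA. All 4 measured members lay above 0 in the main scaling and in the 6 other scalings tried, with a median of 0.054, although 2 single probes lay marginally below 0. Of all named genes, 55.6% lay above 0 in the main scaling and 68.4% with the array median. Among those at or above the median signal the share was 61.4% in the main scaling. Several scalings only move all genes by about the same amount. LSM3 was the highest at 0.13 on its only probe, with 9257 in R80C cells against 8650 in H2A.Z.1 cells. LSM14A stood at 0.058, from 4365, 701 and 445 in R80C cells against 4461, 676 and 426 in H2A.Z.1 cells. LSM12 stood at 0.049 and LSM7 at 0.030.

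The SF3 and U2AF class covers recognition of the branch point and of the 3′ splice site. SF3A1, a subunit of the SF3a part of the U2 particle, was read by 2 probes far apart in brightness. The bright one gave 10248 in R80C cells against 10640 in H2A.Z.1 cells, a difference of -0.023, and the dim one 164 against 146, a difference of 0.19. The gene's mean of 0.085 therefore rests on the dim probe, and the bright probe alone carried the opposite sign. SF3A2, its partner in SF3a, gave 3791, 1685 and 1411 in R80C cells against 3765, 1692 and 1385 in H2A.Z.1 cells, and stood at 0.041 with its 3 probes within 0.033 of each other.

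U2AF1, the small U2AF subunit that reads the AG at the end of the intron, had 5 probes that split by brightness. The 2 brightest gave 39878 and 14550 in R80C cells against 39542 and 14712 in H2A.Z.1 cells, with differences of 0.043 and 0.015. The other 3 gave 3792, 2095 and 384 in R80C cells against 4282, 2290 and 440 in H2A.Z.1 cells, with differences of -0.14, -0.097 and -0.17. The gene's mean was -0.070, and all 5 differences lay within the scanner error.

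PRPF genes encode factors of the tri-snRNP and of the Prp19 complex. PRPF19, the ubiquitin ligase at the centre of the Prp19 complex, was below 0 at all 4 probes, with 6606, 4586, 3316 and 2161 in R80C cells against 7448, 5088, 3617 and 2343 in H2A.Z.1 cells. Its difference of -0.11 is a 1.08-fold lower signal. PRPF3, a protein of the U4/U6 particle, had 5345 and 1667 in R80C cells against 4983 and 1662 in H2A.Z.1 cells and stood at 0.083. PRPF38A, which joins the spliceosome with the tri-snRNP, had 3736 and 3500 in R80C cells against 3541 and 3366 in H2A.Z.1 cells and stood at 0.097. These 3 genes kept their side of 0 at every probe and in all 7 scalings.

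**Figure D2:**
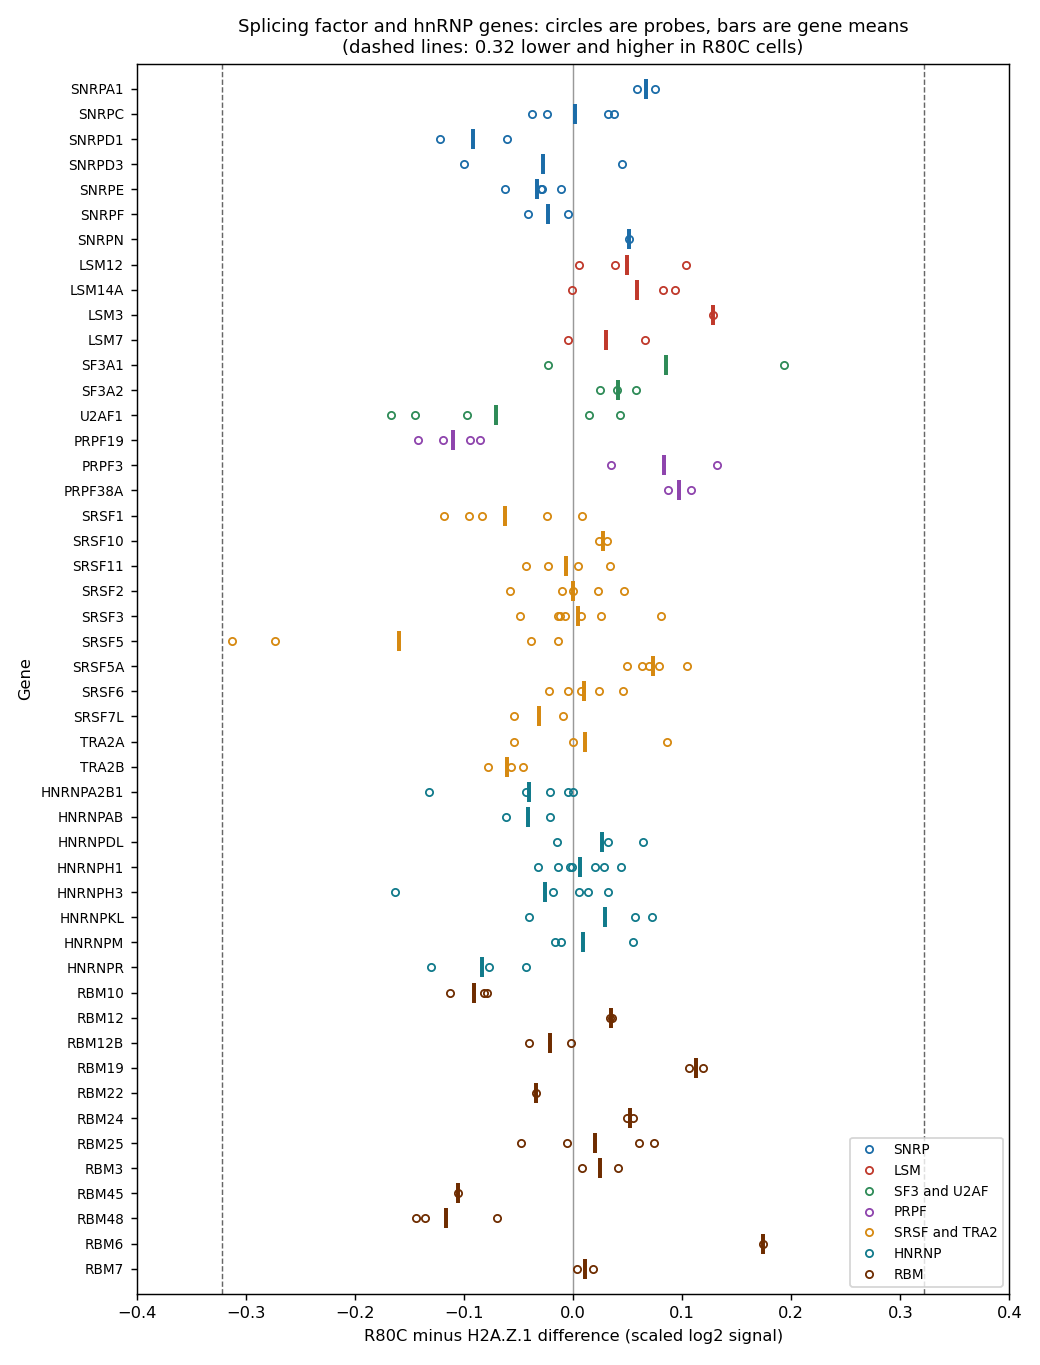
R80C minus H2A.Z.1 difference (scaled log2 signal, horizontal axis) for each of the 48 genes (vertical axis), with a circle for each probe, a bar for the gene's mean and colours for the 7 symbol classes. All 145 circles lie between the dashed lines at 0.32, and the 2 leftmost circles are probes of SRSF5.

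SR proteins and the related TRA2 proteins bind exonic enhancers and recruit the splicing machinery. The 11 measured members had a median of 0.00020 and ranged from -0.16 to 0.073, with 6 above 0. SRSF1, the founding SR protein and a regulator of many alternative exons, had signals of 96826, 64346, 54851, 12371 and 11873 in R80C cells against 107386, 69662, 59857, 12847 and 12059 in H2A.Z.1 cells. Its 3 brightest probes stood between -0.12 and -0.084 and the 2 dimmer ones at -0.024 and 0.0083, with a mean of -0.063. TRA2B, which promotes exon inclusion, was lower by a similar amount, -0.060, over 3 probes. TRA2A, its paralogue, stood at 0.010, with probes from -0.054 to 0.086.

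SRSF5 was the lowest gene of the 48 in the main scaling, at -0.16, a 1.12-fold lower signal. After normexp with quantile normalization SNRPD1 lay marginally below it, both at -0.12. Its probes fell into 2 pairs. In R80C cells one pair read 932 and 683 against 962 and 716 in H2A.Z.1 cells, with differences of -0.014 and -0.039. The other pair read 638 and 237 in R80C cells against 788 and 301 in H2A.Z.1 cells, with differences of -0.27 and -0.31. The gap of 0.30 between its extreme probes was the widest in the set, beside a median gap of 0.072 over the 43 members with several probes and 0.075 over the 2776 such genes in all. All 4 probes carry 1 accession, and the sources used here do not place them within the transcript. With the brightest probe alone the gene stood at -0.014, so its place as the lowest member rests on 2 probes.

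SRSF5A, a second gene of that name in the table, showed no such split. Its 5 probes gave 14124, 12464, 1240, 950 and 666 in R80C cells against 13808, 12052, 1178, 938 and 648 in H2A.Z.1 cells. All 5 differences lay between 0.049 and 0.10, and the mean of 0.073 was the highest of the class. SRSF10, which can repress splicing when dephosphorylated, followed at 0.027, with 11152 and 1049 in R80C cells against 11151 and 1054 in H2A.Z.1 cells.

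The remaining SR genes lay within 0.032 of 0. SRSF3, a short SR protein that also acts in mRNA export, was read by 7 probes from 11434 to 58833 in R80C cells and from 11478 to 56830 in H2A.Z.1 cells, and stood at 0.0044. SRSF2, which binds exonic enhancers and has recurrent mutations in human myeloid disease, stood at 0.00020 over 5 probes. SRSF6 stood at 0.010, SRSF11 at -0.0068 and SRSF7L, whose entry lists the older name SFRS7, at -0.032. The signs of all 5 turned among the scalings.

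**Figure D3:**
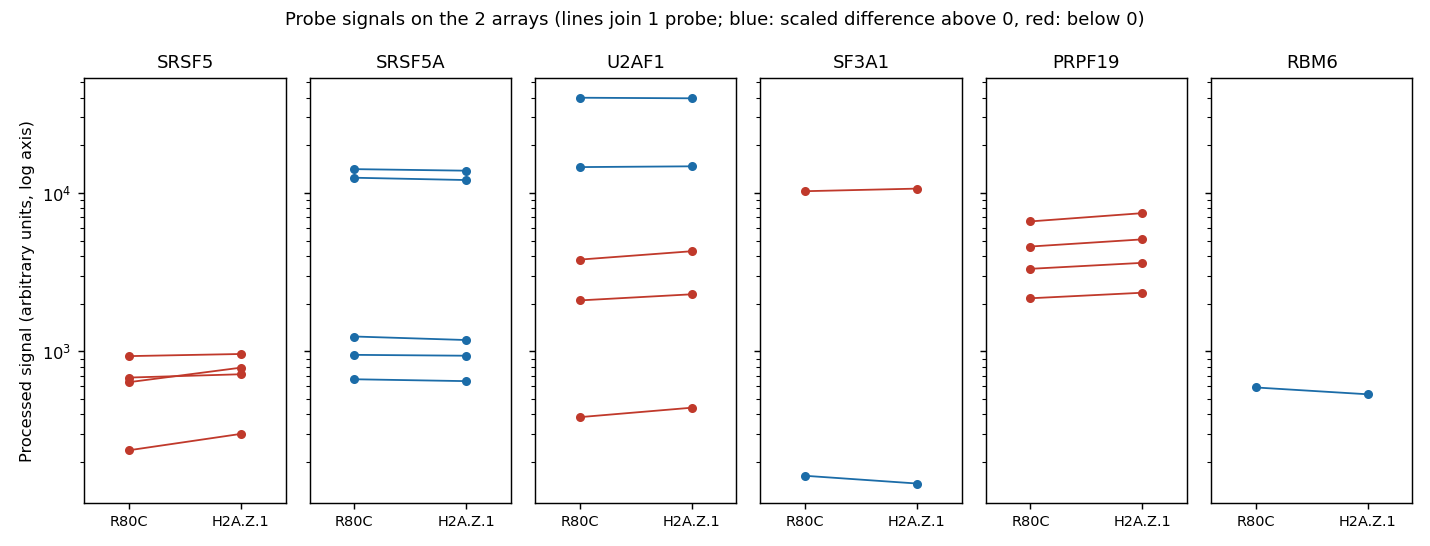
Processed signal (arbitrary units, log axis) of each probe on the R80C array (left) and the H2A.Z.1 array (right) for SRSF5, SRSF5A, U2AF1, SF3A1, PRPF19 and RBM6. Lines join the values of 1 probe, blue for a scaled difference above 0 and red for one below, and the steepest lines are those of 2 probes of SRSF5.

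HNRNP genes encode abundant nuclear proteins that coat pre-mRNA. The 8 measured members had a median of -0.010, with 4 on each side of 0. Their SD of 0.039 was the smallest of the 7 classes, followed by 0.043 among the 4 LSM genes. The classes are small and were matched neither for signal nor for the number of probes. HNRNPR, which also acts in mRNA transport, was the lowest at -0.083, with 12788, 8955 and 7194 in R80C cells against 14294, 9425 and 7753 in H2A.Z.1 cells. HNRNPAB, an RNA-binding protein of the A and B type, stood at -0.041, with 19793 and 18254 in R80C cells against 20513 and 19462 in H2A.Z.1 cells. HNRNPA2B1, a splicing repressor that also sorts RNA, stood at -0.040. There the brightest of 5 probes read 56171 in R80C cells against 62869 in H2A.Z.1 cells, a difference of -0.13, while the other 4 lay between -0.043 and 0.00025.

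The highest HNRNP members were close to 0. HNRNPKL, whose entry also lists the name HNRNPK, had 5518, 4406 and 2392 in R80C cells against 5419, 4628 and 2324 in H2A.Z.1 cells and stood at 0.030. HNRNPDL, a paralogue of hnRNP D that regulates its own splicing, had 55778, 26278 and 19838 in R80C cells against 57574, 25684 and 19822 in H2A.Z.1 cells and stood at 0.027. HNRNPH1, which binds G-rich stretches, was read by 7 probes between -0.032 and 0.044, with a mean of 0.0061. For its relative HNRNPH3, 4 of 5 probes lay between -0.018 and 0.032 and the dimmest at -0.16 (12566 in R80C cells against 14376 in H2A.Z.1 cells). HNRNPM stood at 0.0090.

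RBM genes share an RNA recognition motif and differ widely in role, and not all of them act in splicing. The 12 measured members had a median of 0.015, ranged from -0.12 to 0.17 and included the dimmest probes of the set. RBM6, a regulator of alternative exons, was the highest gene of the 48 at 0.17, a 1.13-fold higher signal, with 591 in R80C cells against 535 in H2A.Z.1 cells on 1 probe. RBM19 acts in ribosome assembly rather than in splicing. It had 17326 and 2387 in R80C cells against 16447 and 2245 in H2A.Z.1 cells and stood at 0.11, with its probes 0.013 apart.

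At the other end, RBM48, which acts in the removal of minor (U12-type) introns, had 416, 65.2 and 43.2 in R80C cells against 470, 73.2 and 46.3 in H2A.Z.1 cells and stood at -0.12. RBM45, an RNA-binding protein of the nervous system, stood at -0.11 on 1 probe, with 2037 in R80C cells against 2239 in H2A.Z.1 cells. RBM10, a relative of RBM6 that promotes exon skipping, lay on the opposite side of 0 from it, at -0.091 with 3 probes between -0.11 and -0.079. Both values lay within the scanner error of a single probe.

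RBM24, a splicing regulator of heart and skeletal muscle, had signals of 59767 and 20823 in R80C cells against 59008 and 20476 in H2A.Z.1 cells, and stood at 0.052. RBM3, the cold-inducible RNA-binding protein, stood at 0.025, and RBM12 at 0.035. RBM22, a factor of the spliceosome's active site, stood at -0.034, and RBM25, which influences the choice of 5′ splice sites, at 0.020. RBM7, part of the complex that sends nuclear RNA to the exosome for decay, stood at 0.011 and RBM12B at -0.021.

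Probes of a gene differed far more in signal than in the difference between the arrays. Over the 43 genes with several probes, the brightest probe was 4.36 times the dimmest at the median and 96.3 times at most (U2AF1), with 8 genes at 10 times or more. The differences of the same probes lay 0.072 apart at the median, over 0.1 apart in 12 genes and over 0.2 apart in 3 (SRSF5, SF3A1 and U2AF1). No gene had probes 0.5 or more apart, beside 1.91% of all named genes with several probes. The brightest probe had the higher difference of the extreme pair in 21 genes and the lower in 22, so brightness went with neither direction.

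In 24 of the 43 genes (55.8%) all probes lay on the same side of 0, 12 above and 12 below, beside 66.7% of all named genes with several probes. The shares were not matched for the number of probes per gene or the size of the differences. More probes or smaller differences make a shared side less likely. Where 0 lies depends on the scaling. Over the 7 scalings, 18 of the 48 genes stayed above 0, 12 stayed below and 18 turned. These counts, and those that follow, were not taken over all named genes, so they show no trait of the set. Several scalings only move all genes by about the same amount. Keeping a side therefore largely restates that a gene's main value lay farther from 0. All probes in the main scaling and all 7 gene values lay above 0 for 11 genes, namely SNRPA1, LSM12, SF3A2, PRPF3, PRPF38A, SRSF5A, SRSF10, RBM3, RBM12, RBM19 and RBM24. They lay below 0 for 8 genes, namely SNRPD1, PRPF19, SRSF5, TRA2B, HNRNPAB, HNRNPR, RBM10 and RBM48. Probes of 1 gene share the RNA of the same 2 cultures and are no replicates of the comparison.

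**Figure D4:**
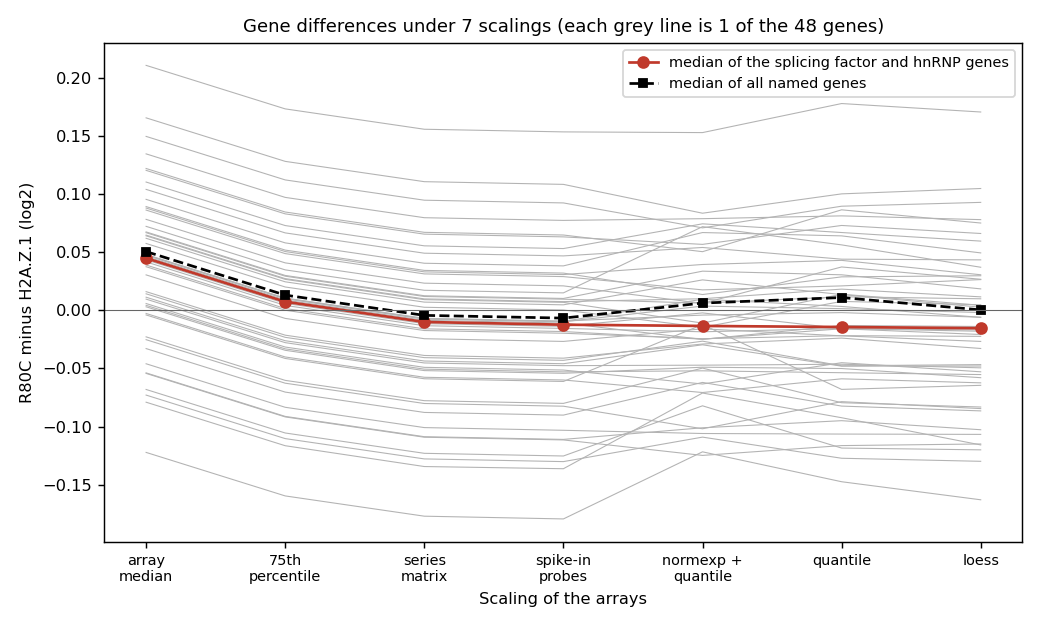
R80C minus H2A.Z.1 difference (log2, vertical axis) of each of the 48 genes (grey lines) under 7 scalings of the arrays (horizontal axis), with the median of the 48 genes (red) and of all named genes (black, dashed). Both medians lie within 0.051 of 0 in each scaling, and RBM6 stays above 0 and SRSF5 below it in all 7 scalings.

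Other splicing genes on the array also stayed within 0.32 (log2). Of 77 such genes with probes, 75 were measured on both arrays, with a median of 0.0095 and 41 above 0. Their SD was 0.082, beside 0.068 for the 48 genes. The median size of their differences, with the sign dropped, was 0.036, beside 0.041 for the 48 genes. The 2 measures thus rank the groups differently, and the groups were matched neither for signal nor for the number of probes. None differed by 0.32 or more in either direction. Of the 75, 62 lay at or above the median signal, as did 44 of the 48. There 0.416% of named genes were higher and 0.786% lower by 0.32 or more, so a count of 0 is close to the background. The extremes named below were picked as the farthest from 0, and each differed by 1.1-fold or more. So did 25.8% of all named genes, and 12.6% of those at or above the median signal. The spliceosome core list (31 measured) had a median of 0.017, the regulator list (28) of -0.0071 and the list of exon junction and snRNP assembly genes (16) of 0.055, with 11 of 16 above 0. Of all named genes 55.6% lay above 0, and 61.4% of those at or above the median signal. The extremes were NCBP2, the small subunit of the nuclear cap-binding complex, at 0.20 over 4 probes and THOC3, a subunit of the complex that couples transcription to mRNA export, at 0.18 on 1 probe. On the other side stood ZRANB2, a zinc finger protein that interacts with the spliceosome, at -0.24 over 4 probes and LUC7L3, a U1-associated protein, at -0.23 over 6 probes.

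**Figure D5:**
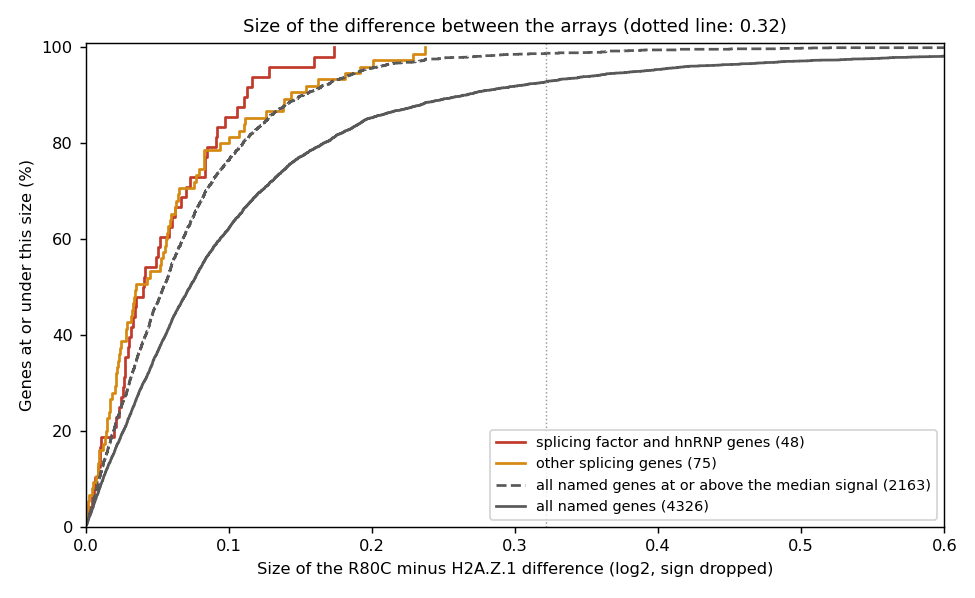
Share of genes (percent, vertical axis) whose difference between the arrays is at or under a given size (log2 with the sign dropped, horizontal axis), for the 48 splicing factor and hnRNP genes, 75 other splicing genes, and all named genes with and without the limit on signal. The curve of the 48 genes ends at 0.17, left of the dotted line at 0.32, and the axis stops at 0.6, beyond which the curve for all named genes goes on.

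All 12 B cell markers with a probe were measured on both arrays, among them CD79B, CD72 and POU2AF1, and none differed by 0.32 or more. Both cultures were DT40, so these markers cannot check which array is R80C. Being measured does not mark a cell type either, since markers of others passed the flag. Markers of other cell types were measured too, 5 of 6 for T cells, 2 of 4 for myeloid cells, 4 of 5 for fibroblasts and 2 of 2 for erythroid cells and thrombocytes, and some differed by more than any of the 48 genes. CD3E, which signals for the T cell receptor, stood at -1.54 and CD5 at 0.50, while CD3D, its partner, was bright on both arrays (36047 in R80C cells against 39701 in H2A.Z.1 cells, the mean of 2 probes) and stood at -0.071. CD3E was dim in R80C cells, at 95.4 against 340 in H2A.Z.1 cells, the mean of 2 of its 3 probes. CD5 averaged 93.0 in R80C cells against 58.7 in H2A.Z.1 cells, with probe differences of 0.20 and 0.80. The collagen gene COL1A2 stood at 0.94, with probes from 0.084 to 1.56. The myeloid markers CSF3R and TIMD4 stood at -0.54 each, on 1 of 2 probes. They read only 10.2 and 24.4 in R80C cells against 15.2 and 36.4 in H2A.Z.1 cells, low among signals that passed the flag. CD4, CD14 and DCN were not well above background on either array. The part of these differences in the values above was not tested. H2AFZ, the gene of H2A.Z.1, read 1475 and 933 in R80C cells against 1537 and 883 in H2A.Z.1 cells at its 2 probes. The sources used here do not place them against the deleted part or the transgene, so they check neither.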

How the data were processed

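Cy3-labelled cRNA of 1 R80C and 1 H2A.Z.1 culture was read on Agilent arrays in 1 colour, per the labels' protocols. The deposited scanner files hold spot intensity made with Agilent Feature Extraction 11.5.1.1 (protocol GE1_1105_Oct12), background-subtracted and detrended within an array, per the file headers, with an error estimate and flags per spot. The series matrix deposited by the authors also holds linear intensity, of unstated basis. Set against the scanner files it equalled the processed signal multiplied by about 1.51 (R80C) and 1.50 (H2A.Z.1), with column medians of 125.1 and 129.9, neither centred nor log-transformed.

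Each processed signal was divided by its array's 75th percentile (non-control spots) and put on the log2 scale. Probes had to be well above background on both arrays, without saturated or outlier-flagged spots. Genes were named by unversioned RefSeq accession in a table of assembly GRCg7b, which matched 11935 of 13060 RefSeq probes. The files use build galGal3, so no coordinates are given. Other lists were matched by exact symbol. The rule for named genes took the 2 highest and 2 lowest members of each class, members differing by 0.32 (log2) or more, with probes 0.5 or more apart or not measured and, of other splicing genes, the 2 farthest from 0 in each direction and any at least 1.5-fold different. The members and lists were chosen with earlier results of these data known. As alternatives, the arrays were scaled by the median, quantile normalization, loess, normexp (offset 50) on the median signal with quantile normalization (limma 3.58.1, R 4.3.3), the series matrix or the spike-in probes, and other filters and the median or brightest probe of a gene were tried. The gene summary was tested on simulated data. The number of arrays limits the precision.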

Additional observations from a re-analysis of the deposited data

How the results depend on the processing

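Of the 48 genes, none reached 0.32 (log2) under any of the 11 alternatives, but not all of these could change a gene's value. All 145 probes already passed the flag, so the lenient flag and no filter left every value of the 48 genes as it was. The limit on signal could only drop genes. Scaling by the array median, the spike-in probes or, closely, the series matrix moved all differences by the same amount. Their median ranged from -0.015 after loess to 0.045 with the array median, and that of all named genes from -0.0066 with spike-in scaling to 0.051 with the array median. Without a filter on dim probes or with the lenient flag, 1 other splicing gene differed by 0.32 or more, and 1 by 1.5-fold. Without a filter this was RALYL, with 2.93 in R80C cells and 4.85 in H2A.Z.1 cells, below the background flag. With the brightest probe alone SF3A1 stood at -0.023, SRSF5 at -0.014 and U2AF1 at 0.043. Normexp used the median spot signal, since the files give no mean. The steady limits are 1 array per group and signal: the 4 dimmer genes of the set, SRSF5, RBM6, RBM12 and RBM48, drop out when the median signal is required. No paired analysis was possible because the groups hold 1 array each.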
